A study of Mus musculus with 8 samples.

Results

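Nfat5 and 9 genes known to act upstream of its protein were examined under salt stress in mouse cells labelled as inner medullary collecting duct, a name that several of the markers given below go against. The genes were fixed by symbol in the table of raw counts: Nfat5, Akap13, Dhx9, Parp1, Fyn, Rac1, Ccm2, Map3k3, Map2k3 and Mapk14. All 10 were among the 15288 genes of the table, and all 10 passed the filter on low counts that left 14024 genes for testing. The cell line is labelled IMCD, and both groups spent 12 h in DMEM without serum, after growth in DMEM with serum. The control group (replicates 1 to 4) had no added salt, and the NaCl group (replicates 5 to 8) had 100 mmol NaCl, an amount the labels give without a volume. The labels do not say whether the 4 libraries of a group came from separate cultures or passages. The p-values therefore measure only the spread between these libraries, which may be technical.

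Nfat5, also called TonEBP, is a transcription factor of the Rel family that binds the tonicity element of genes for osmolyte transport and synthesis. Its activity is known to be set at several steps: the amount of its transcript and protein, its entry into the nucleus, and phosphorylation of its transactivation domain. Upstream of it, Rac1, the scaffold Ccm2 and the kinases Map3k3, Map2k3 and Mapk14 (p38 alpha) form a kinase cascade that responds to hypertonicity. Fyn is a tyrosine kinase that also raises Nfat5 activity, Akap13 is an exchange factor and anchoring protein linked to induction of the Nfat5 gene, and Dhx9 and Parp1 bind the Nfat5 protein and lower its activity. RNA sequencing measures the transcripts of these genes. The phosphorylation, binding and transport through which their proteins act were not measured.

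Library totals were between 35.29 M and 47.57 M counts, and each member had between 1753 and 18597 counts in any library. Totals did not differ between the groups by more than the replicate spread allowed (43.55 ± 2.71 M in control against 40.22 ± 3.32 M with NaCl, SD, n = 4; p = 0.143 in a two-sided exact permutation test). The labelled cell type was checked against marker genes. Of 17 collecting duct markers, 15 were in the table and 9 had at least 10 counts in every library, Krt8, Krt18, Krt19, Epcam and Tfap2b among them, and these 5 were not called between the groups. Scnn1g and Gata3, also on the list, were called lower with NaCl by edgeR (log2 fold change -0.84 and -0.44; adjusted p = 3.74e-04 and 0.00341). Aqp3, Aqp4, Scnn1b and Hsd11b2 were low, with at most 28, 21, 14 and 57 counts in any library. Scnn1a had 80 to 116 counts, and Elf5 and Fxyd4 were not among the genes of the table. Avpr2 had 0, 6, 11 and 1 counts in control and 16, 16, 48 and 25 with NaCl, and Cdh1 had 9, 14, 2 and 9 in control and 22, 30, 13 and 21 with NaCl. These 2 genes passed the filter on low counts only through the NaCl group, so no test is given for them. The markers Aqp2 and Cdh1 were near 0, with at most 0.0725 and 0.332 CPM (counts per 1 M counts) in control and at most 0.364 and 0.709 CPM in NaCl libraries. Of 4 proximal tubule markers, Lrp2 had 152 to 203 CPM over all libraries, Cubn 1.91 to 2.93 CPM and Slc5a2 at most 0.26 CPM, and Slc34a1 was not among the genes of the table. In the same libraries the fibroblast marker Col1a1 had 1950 to 2650 CPM. The 3 fibroblast markers summed to 2360 to 2700 CPM in control and 2020 to 2370 CPM in NaCl libraries, nearly all of it Col1a1. They did not move together: Col1a1 and Pdgfra were called lower by edgeR (log2 fold change -0.21 and -0.67), and Pdgfrb was called higher (0.70), from 34.6 to 43.1 CPM in control to 57.6 to 65.1 CPM with NaCl. The leukocyte markers Ptprc and Csf1r, 2 in all, summed to 11 to 15.1 CPM in control and 19.9 to 24.6 CPM in NaCl libraries. The thick limb markers Umod and Slc12a1 summed to 1.66 to 2.82 CPM in control and 2.45 to 3.43 CPM in NaCl libraries. The 3 intercalated cell markers were not among the genes of the table, and the 3 endothelial markers were represented by Cdh5 alone, at most 0.797 CPM. The part of these other markers in the results below was not tested. In bulk RNA, fewer cells of a type and less RNA per cell cannot be told apart.

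The sequences upstream of a RefSeq start of the 2 members that changed are shown first, with that of a known target for comparison. They are the 250 bases before the annotated start, taken from RefSeq on GRCm38.p6, 5′ to 3′ on the gene's strand. In the first pair the capitals mark the GC box GGGCGG on either strand, and in the last they mark TGGAAA, the core of the tonicity element.
Nfat5: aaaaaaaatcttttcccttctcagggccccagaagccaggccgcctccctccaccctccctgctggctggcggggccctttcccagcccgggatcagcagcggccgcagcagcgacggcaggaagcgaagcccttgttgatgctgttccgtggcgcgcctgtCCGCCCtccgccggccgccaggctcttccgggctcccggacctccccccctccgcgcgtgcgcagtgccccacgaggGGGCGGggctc
Fyn: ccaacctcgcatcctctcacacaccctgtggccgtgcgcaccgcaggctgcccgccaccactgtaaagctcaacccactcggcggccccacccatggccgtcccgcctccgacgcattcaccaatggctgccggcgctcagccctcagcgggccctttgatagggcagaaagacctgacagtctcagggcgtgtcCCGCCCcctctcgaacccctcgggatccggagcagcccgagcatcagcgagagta
Slc6a12: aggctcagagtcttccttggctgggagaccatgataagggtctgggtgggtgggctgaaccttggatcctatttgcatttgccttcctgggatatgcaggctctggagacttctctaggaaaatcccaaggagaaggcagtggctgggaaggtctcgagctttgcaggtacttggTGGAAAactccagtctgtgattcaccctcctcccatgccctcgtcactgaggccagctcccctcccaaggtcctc
The windows lie at chr8:107293220-107293469 for Nfat5, chr10:39369549-39369798 for Fyn and chr6:121342324-121342573 for Slc6a12, all on the plus strand. The Fyn window lies inside the gene as GENCODE places it, downstream of the first GENCODE start, since the annotations differ there. Slc6a12 has several annotated starts, and the window shown was chosen because it holds the motif.

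Of the 10 members, 9 had at least 1 upstream window in the RefSeq table, 11 windows in all. The exception was Rac1. TGGAAA, searched on both strands, was in 0 of these 11 windows, and 18.6% of 32851 windows of the same length over all genes held it. Among the known targets of Nfat5 listed further on, 11 genes had 17 windows, and TGGAAA was in 4 of the 17, which belong to Pnpla6, Ranbp3l and Slc6a12. The GC box GGGCGG, a binding site of Sp1, was in 8 of the 11 member windows, against 32.7% of all windows, and cannot overlap TGGAAA. The common promoter element CCAAT, which can overlap either motif, was in 6 of the 11 member windows, against 33.8% of all windows, and was not in the Nfat5 window. The Nfat5 and Fyn windows had a GC content of 71.6% and 67.2%, where the median over all windows was 52.4%. These matches describe letters in short windows, and known tonicity elements can lie further from a start.

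Of the 10 genes, 2 differed in transcript level between the groups, and by little. Nfat5 itself rose 1.22-fold and Fyn fell 1.23-fold, and the other 8 regulators did not pass the test. A gene was called when edgeR's quasi-likelihood test, adjusted by Benjamini and Hochberg's method over all genes tested, put it under 0.05. By this rule 34.1% of all tested genes were called, 16.9% higher and 17.2% lower, so a share of 20% among the members was not above the background. The median absolute log2 fold change was 0.06 over the members and 0.14 over all genes tested. The 4 libraries of a group all lay on the same side of the other 4 for 3 members, Nfat5, Fyn and Mapk14, against 33.4% of all genes. For the 8 members that were not called, the 95% intervals of the fold change reached no further than 1.14-fold in either direction.

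**Figure D1:**
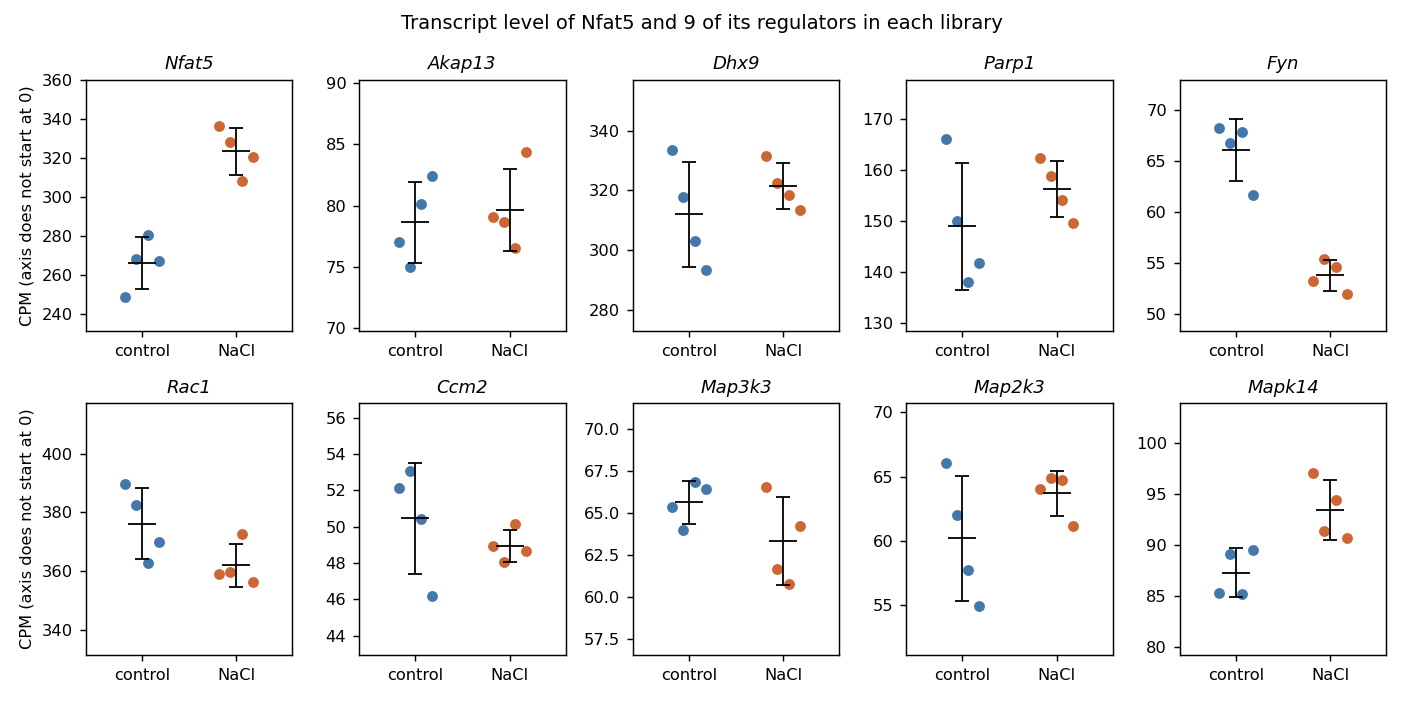
Transcript level (CPM, y axis, not starting at 0) of the 10 genes in each of 4 control and 4 NaCl libraries; points are libraries, and bars are the mean with 1 SD. Nfat5 lay between 248.6 and 280.6 CPM in control and between 308.5 and 336.7 CPM in NaCl libraries, while the groups overlapped for 7 of the genes.

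**Figure D2:**
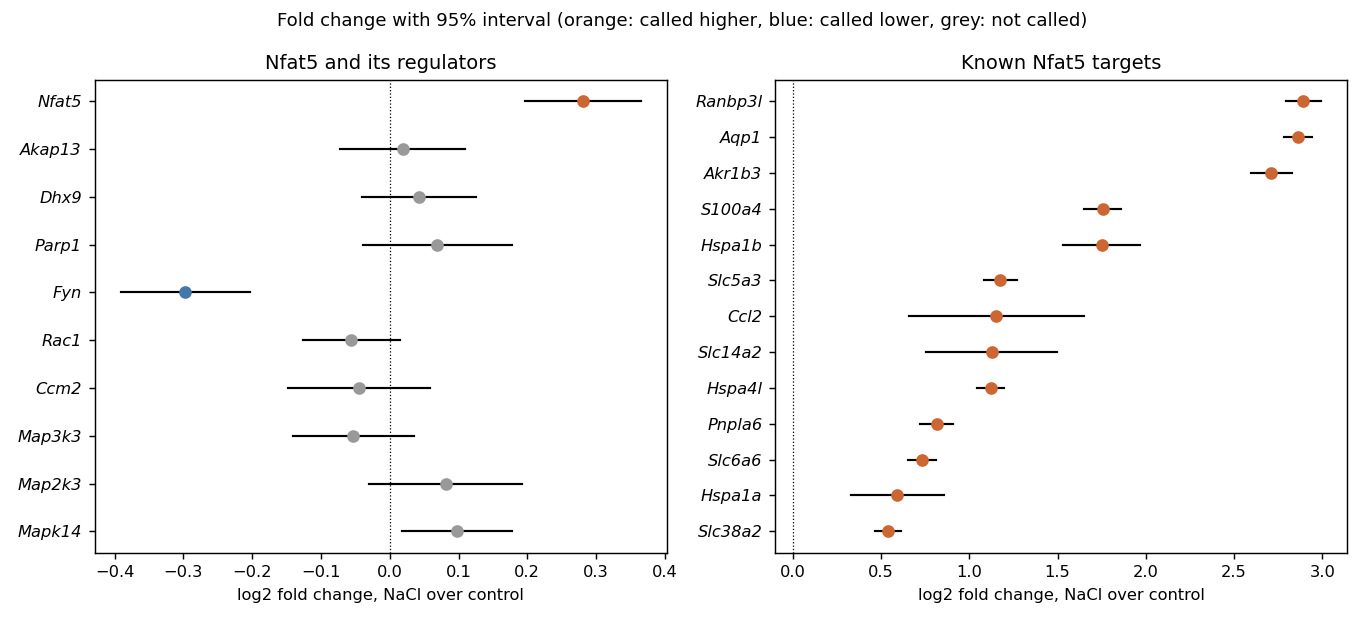
Log2 fold change, NaCl over control (x axis), with its 95% interval for Nfat5 and its regulators (left) and for 13 known Nfat5 targets (right, on a wider axis; Slc6a12, with 0 control counts, is not drawn). Members lay between -0.30 and 0.28, and the targets drawn between 0.54 and 2.89.

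Nfat5 (ENSMUSG00000003847) lies at chr8:107293470-107379517 on the plus strand of GRCm38, with 16 exons in its longest annotated transcript of 13443 bases. Its level in control replicates 1 to 4 was 248.6, 268.4, 280.6 and 267.3 CPM, and in NaCl replicates 5 to 8 it was 336.7, 328.3, 308.5 and 320.5 CPM. Every NaCl library lay above every control library. The log2 fold change was 0.28 (SE 0.040, 95% interval 0.20 to 0.37), with an edgeR adjusted p-value of 3.96e-05. This was a rise of 21.5%, and 14.3% of all tested genes had a higher fold change. The call held in each of 18 alternative fits, with log2 fold changes from 0.25 to 0.30. No other annotated gene overlapped its exons or shared 75 bases of its longest transcript at 98% identity.

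Dhx9 and Parp1 encode nuclear proteins known to bind Nfat5 and hold its activity down. Dhx9 (ENSMUSG00000042699, chr1:153455758-153487660, minus strand), which encodes RNA helicase A, had 333.7, 317.8, 303.1 and 293.4 CPM in control and 331.5, 322.6, 318.3 and 313.4 CPM in NaCl libraries. The NaCl libraries lay within the control range, and its log2 fold change, 0.04 with an SE of 0.039, did not pass (edgeR adjusted p = 0.434). Parp1 (ENSMUSG00000026496, chr1:180568924-180601254, plus strand), which encodes poly(ADP-ribose) polymerase, had 166.1, 150.0, 138.0 and 141.8 CPM in control libraries. In NaCl libraries it had 162.4, 158.9, 154.2 and 149.6 CPM, again inside the control range. Its log2 fold change was 0.07 (SE 0.051; adjusted p = 0.323). Control replicate 1 held the highest level of both genes. Without it Parp1 was called higher at 0.12 on the log2 scale (adjusted p = 0.0248).

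Fyn (ENSMUSG00000019843, chr10:39368855-39565381, plus strand), a Src family tyrosine kinase, was the regulator that changed. Control replicates 1 to 4 had 68.22, 66.77, 67.85 and 61.65 CPM, and NaCl replicates 5 to 8 had 53.26, 55.41, 54.60 and 51.95 CPM. All NaCl libraries lay below all controls, with control replicate 4 nearest to them. The log2 fold change was -0.30 (SE 0.044, 95% interval -0.39 to -0.20; edgeR adjusted p = 7.00e-05), and 10.98% of all tested genes had a lower value. Its direction was opposite to that of Nfat5. Leaving out any library kept the call, and a linear drift over library numbers 1 to 8 in the fit ended it (log2 fold change -0.19, adjusted p = 0.106). Fyn is also expressed in leukocytes. Of the 2 leukocyte markers, Ptprc rose from 3.62 to 4.47 CPM in control to between 13 and 14 CPM in NaCl libraries, and Csf1r was not called. Whether the cell types in the libraries bear on the level of Fyn was not tested.

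Akap13 encodes an exchange factor and anchoring protein, Rac1 a small GTPase, and Ccm2 the scaffold that brings Rac1 to the kinases. Akap13 (ENSMUSG00000066406, chr7:75455534-75754609, plus strand) had 77.00, 74.97, 80.13 and 82.41 CPM in control and 79.09, 78.68, 76.49 and 84.39 CPM in NaCl libraries. The groups overlapped over nearly their whole ranges, and the log2 fold change was 0.02 (SE 0.043; edgeR adjusted p = 0.770). Its sign turned in 3 of 18 alternative fits, none of which called it.

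Rac1 (ENSMUSG00000001847, chr5:143503634-143528036, minus strand) had the most CPM of the members. Its values were 389.8, 382.5, 362.7 and 369.8 CPM in control and 358.9, 359.8, 372.6 and 356.4 CPM in NaCl libraries. Its log2 fold change, -0.06 with a 95% interval from -0.13 to 0.01 and an SE of 0.033, did not pass (edgeR adjusted p = 0.212). Of its annotated exon bases, 51.4% overlap Daglb on the opposite strand. The strandedness of the counting is not given in the sources used here, so reads from Daglb cannot be told apart from those of Rac1 there. Ccm2 (ENSMUSG00000000378, chr11:6546887-6596744, plus strand), the member with the fewest CPM, had 46.18 to 53.06 CPM in control and 48.03 to 50.14 CPM in NaCl libraries. Its NaCl libraries lay inside the control range, at -0.04 on the log2 scale with an SE of 0.049 (adjusted p = 0.525).

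The 3 kinases of the cascade follow each other from Map3k3 (MEKK3) to Map2k3 (MKK3) to Mapk14. Map3k3 (ENSMUSG00000020700, chr11:106084613-106155446, plus strand) had 65.35, 63.97, 66.86 and 66.42 CPM in control and 66.57, 61.63, 60.78 and 64.24 CPM in NaCl libraries. NaCl replicates 5 and 8 lay inside the control range, and its log2 fold change, -0.05 with an SE of 0.042, did not pass (edgeR adjusted p = 0.358). Map2k3 (ENSMUSG00000018932, chr11:60932033-60952811, plus strand) had 66.08, 62.00, 57.70 and 54.93 CPM in control and 64.03, 64.87, 64.71 and 61.15 CPM in NaCl libraries. The control libraries spread over a wider range than the NaCl libraries and enclosed them, at 0.08 on the log2 scale with an SE of 0.053 (adjusted p = 0.256).

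Mapk14 (ENSMUSG00000053436, chr17:28691329-28748406, plus strand) lay closest to the threshold. Its control libraries had 85.28, 89.15, 85.15 and 89.55 CPM, and its NaCl libraries had 97.12, 91.35, 94.47 and 90.71 CPM. The groups did not overlap, but the gap between them was small, from 89.55 to 90.71 CPM. The log2 fold change was 0.10 (SE 0.038, 95% interval 0.02 to 0.18), a difference of 7.01%, with an edgeR adjusted p-value of 0.0555. Of 18 alternative fits, 2 placed it under 0.05: scaling by library totals alone (adjusted p = 0.0465) and the library number centred within its group as a covariate (0.0241).

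A linear drift over library numbers 1 to 8, a term partly aligned with the groups, moved the members' calls most among the alternatives run. Under it 24.1% of all genes were called, 11.5% higher, and the members called were Nfat5, Dhx9, Parp1 and Map2k3, all 4 higher. Dhx9 then had a log2 fold change of 0.22 (edgeR adjusted p = 0.00243), Parp1 of 0.31 (4.43e-04) and Map2k3 of 0.31 (0.00594). Nfat5 stayed called, at 0.27 (0.00381). The labels do not say whether the libraries were handled in the order of their numbers.

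Levels were then compared between genes per length, as CPM per kilobase of annotated exon. In control libraries Rac1 was highest at 83.7 ± 2.71 CPM per kilobase (SD, n = 4), followed by Dhx9 at 32.5 ± 1.83 and Parp1 at 28.1 ± 2.35, whose ranges overlapped. Mapk14 at 19.95 ± 0.547 and Map2k3 at 18.2 ± 1.48 overlapped as well, as did Map2k3 and Map3k3 at 16.3 ± 0.321. Below Map3k3, Fyn at 15.2 ± 0.698 overlapped Nfat5 at 14.5 ± 0.720, and Nfat5 overlapped Ccm2 at 13.8 ± 0.832. Akap13 was lowest at 3.76 ± 0.158 CPM per kilobase. With NaCl the order changed for Nfat5, Map3k3, Ccm2 and Fyn, and no neighbouring ranges overlapped. Nfat5 had 17.6 ± 0.654 CPM per kilobase and moved from the eighth to the sixth place, and Fyn had 12.3 ± 0.349 and moved from the seventh to the ninth. Scaled by the longest transcript in place of all exons, Nfat5 was seventh and Fyn ninth in both groups, so these places rest on the length used.

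**Figure D3:**
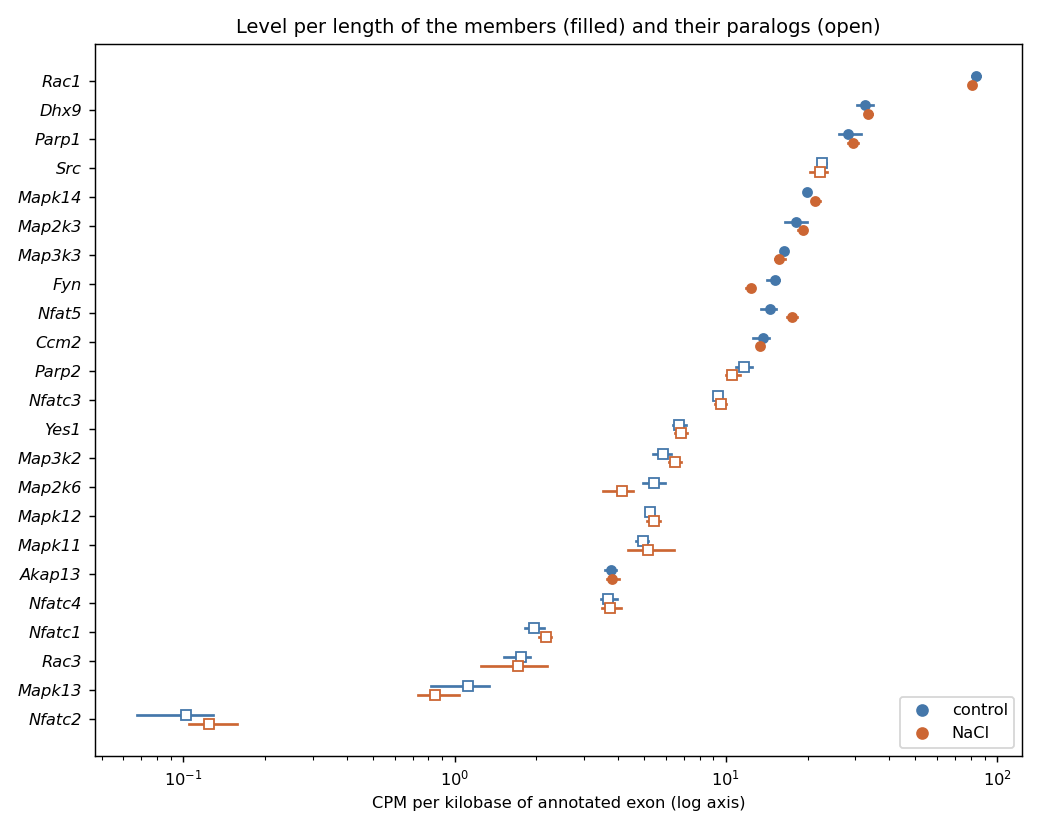
Level per length (CPM per kilobase of annotated exon, log axis) of the 10 genes (filled circles) and 13 paralogs (open squares) in control (blue) and NaCl (orange) libraries; symbols are means of 4 libraries and lines span the lowest to the highest library. Rac1 was highest in both groups at 83.7 and 80.5 CPM per kilobase, and Nfat5 and Fyn overlapped in control, while Nfat5 lay above Fyn with NaCl.

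Each member was also set against its nearest relatives, as its share of the summed level per kilobase of the family. Of 7 families tested, 4 had groups that did not overlap. Shares of other gene families were not computed, and 33.4% of single genes did not overlap either, so nothing particular to these families is read from that count. With 4 libraries a group, an exact two-sided permutation test cannot give less than p = 0.0286, which became 0.05 after adjustment over the 7 shares, 4 of them at that smallest value, so no share was placed under 0.05. Nfat5 held 46.75, 49.69, 50.03 and 49.46% of the level of the NFAT family in control and 53.7, 53.6, 51.2 and 53.3% in NaCl libraries (adjusted p = 0.05, exact permutation test). Its calcineurin-regulated relatives Nfatc1 to Nfatc4 were not called. Nfatc3 was the highest of them, at 109.5 ± 2.03 and 113 ± 4.49 CPM, and Nfatc2 had only about 1 CPM.

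Map2k3 and Map2k6 encode the kinases that activate p38. The share of Map2k3 was 80.02, 79.03, 74.55 and 74.16% in control and 84.57, 82.47, 81.09 and 81.04% in NaCl libraries, without overlap (adjusted p = 0.05, exact permutation test). Its partner Map2k6 fell, from 18.65 ± 1.78 to 14.25 ± 1.52 CPM (log2 fold change -0.39, SE 0.089; edgeR adjusted p = 0.00286), and that call held in all 18 alternative fits. Parp1 held 70.2 to 71.5% of the summed level of Parp1 and Parp2 in control and 73.1 to 74.4% in NaCl libraries (adjusted p = 0.05, exact permutation test). Parp2, a related polymerase, had 42.15 ± 2.83 and 38.3 ± 1.89 CPM and was not called (adjusted p = 0.0672). It was called lower in 4 of 18 alternative fits, with the centred library number (0.0154), without control replicate 3 or 4 (0.0497 and 0.0365) and without NaCl replicate 5 (0.038), and its sign turned under the linear drift (adjusted p = 0.537).

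Fyn held 31.8 to 35.4% of the level of the 3 kinases Fyn, Src and Yes1 in control and 28.4 to 30.6% in NaCl libraries (adjusted p = 0.05, exact permutation test). Src and Yes1 were not called, with log2 fold changes of -0.03 and 0.02. The share of Mapk14 in the 4 p38 kinases was 63.8 ± 0.657% in control libraries and 65.1 ± 2.19% with NaCl, with overlap (adjusted p = 0.333, exact permutation test). NaCl replicate 6, at 62.04%, made the overlap, and the other NaCl libraries (65.22 to 66.92%) lay above the highest control at 64.65%. The difference of 1.36 points was 2.4 points without NaCl replicate 6 and 0.772 points without NaCl replicate 7. Mapk11 and Mapk12 had log2 fold changes of 0.06 and 0.05, and Mapk13, at 2 to 4 CPM on average, had -0.40 with an adjusted p-value of 0.101 in edgeR. It was called lower in 3 of 18 alternative fits, with the centred library number (0.0396), under the linear drift (0.0111) and without control replicate 2 (0.0376). Rac1 made up 97.9 ± 0.167% of Rac1 and Rac3 in control and 97.9 ± 0.457% in NaCl libraries. Map3k3 held 73.5 ± 1.11% of Map3k3 and Map3k2 in control and 70.9 ± 1.43% in NaCl libraries, with overlap (adjusted p = 0.08, exact permutation test). Map3k2 was called higher, at 82.03 ± 5.001 and 90.26 ± 4.09 CPM (adjusted p = 0.0318), but lost the call in 6 of 18 alternative fits. Without control replicate 1, 2 or 3 or without NaCl replicate 7 or 8 its adjusted p-value was 0.107, 0.0689, 0.056, 0.088 or 0.105, and under the linear drift its sign turned (log2 fold change -0.09).

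**Figure D4:**
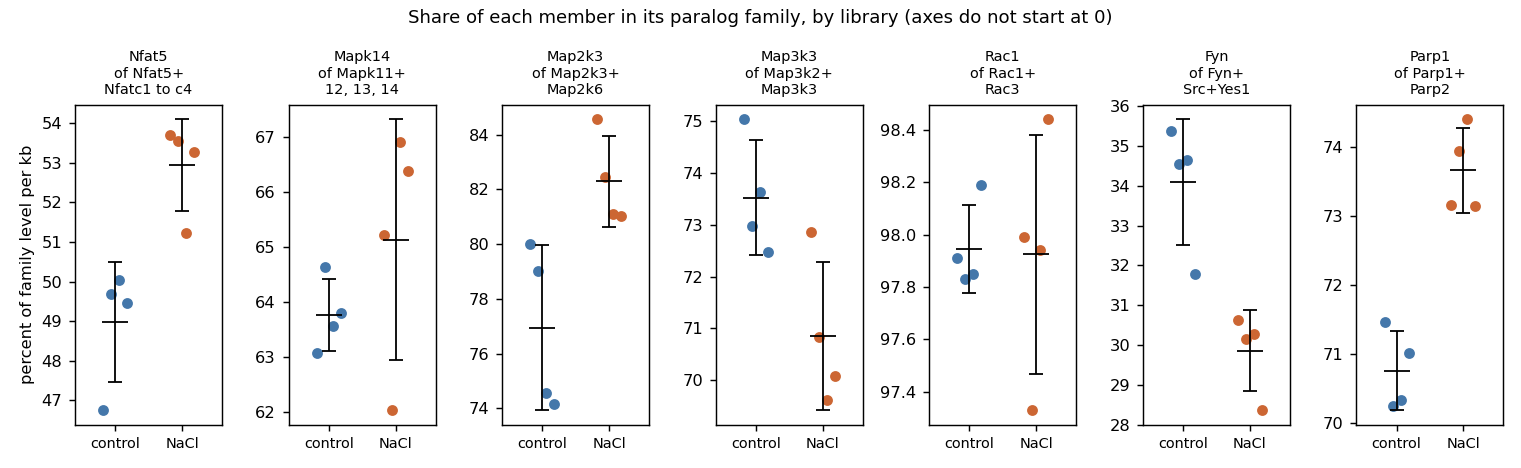
Share (percent, y axes not starting at 0) of each member in the summed level per kilobase of its paralog family, by library; points are libraries, and bars are the mean with 1 SD. For Nfat5, Map2k3, Fyn and Parp1 the 4 control and 4 NaCl libraries did not overlap.

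Further genes of the pathway were counted in 3 lists, of which 57 genes were tested. Of these, 10 were called higher and 10 lower, which is 35.1%, close to the 34.1% of all genes. None of the 57 changed by as much as 2-fold. The lists were the p38 module, other kinases and phosphatases that act on Nfat5, and its nuclear partners and relatives.

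In the p38 module, 6 of 20 genes were called higher and 2 lower, which is 40%, beside 34.1% of all genes. The list's median was 0.07 on the log2 scale (0.00287 over all genes). Among the called genes, the highest values were those of Rps6ka5 (0.37), the kinase MSK1, Map3k11 (0.24), the kinase MLK3, and Krit1 (0.23), which encodes a binding partner of Ccm2. Tab1 and Tab2, adaptors of the kinase Map3k7, were also called higher (0.17 and 0.18). The 2 genes called lower were Map2k6 and Mapkapk2 (-0.14), the latter a kinase that p38 activates. Spag9, the scaffold JIP4 that binds Akap13, had 124.8 ± 5.20 and 125.5 ± 2.25 CPM (log2 fold change 0.01; edgeR adjusted p = 0.885). Rps6ka5 lost its call under the linear drift (adjusted p = 0.223). Of the genes not called, Map3k1 turned its sign and was called lower under the drift (log2 fold change -0.39; edgeR adjusted p = 4.63e-04). Mapkapk3 was also called lower there (-0.41; 0.00567). Map3k4 was called higher with the centred library number (0.0433) and without control replicate 1 (0.0419).

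Of 17 other kinases and phosphatases reported to act on Nfat5, 2 were called higher, 2 lower and 13 not. The share called was 23.5%, beside 34.1% of all genes. Those called higher were Cdk5 (log2 fold change 0.23) and the DNA damage kinase Atm (0.16). Those called lower were the phosphatase Ptpn6, also called SHP-1, at 12.05 and 9.33 CPM (-0.37), and the casein kinase Csnk1a1 (-0.10). Mtor, Akt1, Pik3ca, Abl1, Gsk3b, Plcg1, Ptpn11 and the protein kinase A subunits Prkaca and Prkacb were not called. Pik3ca was called higher with the library number as a covariate in either form (0.0274 centred and 0.0342 as a drift), and Prkacb was called lower under the drift (0.0355). Atm lost its call without control replicate 2, 3 or 4 (edgeR adjusted p = 0.107, 0.123 and 0.102), without NaCl replicate 5 or 6 (0.123 and 0.138) and with limma-voom (0.0512). Csnk1a1 lost it without control replicate 3 (0.0594) or NaCl replicate 5 (0.0512), and Ptpn6 under the linear drift (0.0598).

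Among 20 nuclear partners and relatives, 2 were called higher and 6 lower, which is 40%, beside 34.1% of all genes. The list's median was -0.04 on the log2 scale. The coactivator genes Ep300 and Crebbp, which encode histone acetyltransferases, rose by 0.26 and 0.21 on the log2 scale. The chaperone genes Hsp90ab1 and Hsp90aa1 fell, from 3579 ± 75.8 to 2871 ± 11.2 CPM and from 1205 ± 46.8 to 1027 ± 9.33 CPM. Ncl, which encodes the RNA-binding protein nucleolin, fell by 0.49 on the log2 scale, from 1002 ± 54.7 to 712.9 ± 19.0 CPM (edgeR adjusted p = 5.49e-08). The helicase genes Ddx5, Ddx17 and Dhx36 were not called, and neither were Nup88 and Kpnb1, which act in nuclear transport. The importin gene Kpna6, of the same function, was called lower (-0.11; adjusted p = 0.022), a call lost in 5 of 18 alternative fits: without control replicate 1 (0.0552), without NaCl replicate 7 or 8 (0.0638 and 0.06), with library totals alone (0.0559) and under the linear drift (0.97). Some uncalled genes were called in an alternative: Nup88, Kpnb1 and Ddx5 under the linear drift (0.00695, 0.0354 and 0.0134), and Ddx17 with DESeq2 (0.0405) and with the centred library number (0.0181). Crebbp lost its call under the linear drift (adjusted p = 0.065).

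**Figure D5:**
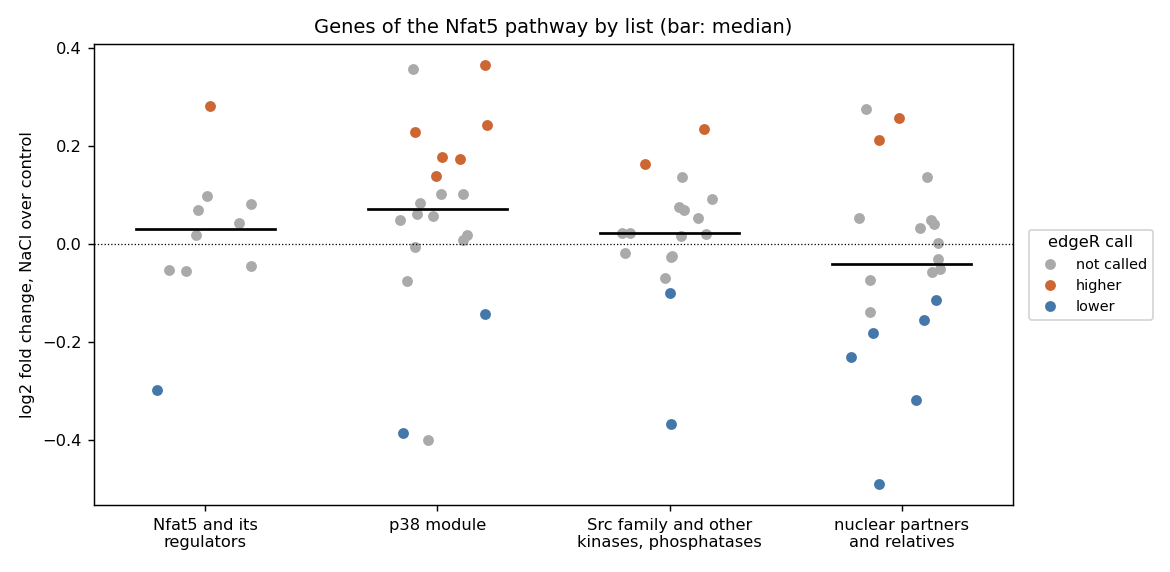
Log2 fold change, NaCl over control (y axis), of Nfat5 and its regulators and of the tested genes in 3 wider lists; each point is a gene, coloured by its edgeR call, and bars are medians. Calls in both directions occurred in each of the 3 lists, and no gene reached a change of 2-fold.

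Known targets of Nfat5 are given beside it for scale. The list held genes whose response to tonicity these libraries had already shown, so its direction is not independent evidence. Of 15 genes, 14 passed the filter on low counts. Slc6a12, with 0, 0, 0 and 0 counts in the controls, passed it only through the NaCl group, so no test is given for it. All the others that passed were called higher. The median log2 fold change over the 14 was 1.16, also with Slc6a12 at its lower bound. These called targets, without Slc6a12, kept their call in every alternative fit. Aqp2 was not tested, with 0, 1, 3 and 0 counts in the controls and 12, 8, 15 and 14 with NaCl. Pnpla6, a phospholipase that forms the osmolyte glycerophosphocholine, rose from 71.1 ± 3.74 to 125 ± 5.09 CPM (log2 fold change 0.82; edgeR adjusted p = 4.95e-10). Slc14a2, a urea transporter, rose from 2.31 ± 0.571 to 5.06 ± 0.703 CPM (1.13; adjusted p = 1.02e-04). Nfat5 itself, at 0.28, lay below the lowest target, Slc38a2 at 0.54.

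The genes that varied most like Nfat5 were ranked by the root mean square distance between log2 CPM profiles, centred on their own mean over the 8 libraries. Of 10110 genes whose mean log2 CPM reached 3, the nearest 5 were Abhd14b (0.0237), Prpf39 (0.0322), Krcc1 (0.0334), Bltp1 (0.0351) and Ssbp4 (0.0353), where the median distance over all genes was 0.175. Their own log2 fold changes were 0.32, 0.25, 0.25, 0.28 and 0.28. Among the regulators, Mapk14 was nearest at 0.110, in place 1437 of the 10110, and Fyn was farthest at 0.299, in place 9159. This ranking describes likeness over 8 libraries and carries no test.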

How the data were processed

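RNA from 8 samples of the IMCD line (4 control, 4 NaCl) was extracted with Trizol and sequenced, per the labels' protocols. Raw counts per gene were deposited by the authors and were the input to every test. A table of normalized values, also deposited, held a signal: each raw count over 1 factor per library, 0.864 to 1.145. Trim Galore 0.6.7, STAR, DESeq2 1.34.0 and the build mm10 are named in the submitters' processing notes. The counting program and strandedness are not given in the sources used here.

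Counts were fitted in R 4.3.3 with edgeR 4.0.16: filterByExpr with groups and a minimum count of 10 (14024 of 15288 genes kept), TMM scaling, a quasi-likelihood fit, robust, whose only term was the group, and adjustment over all genes tested. CPM used TMM-scaled totals, and log2 CPM a prior count of 2. Slc6a12 was bounded at 3 counts per control library, which covers counting error only. Exon lengths and positions came from GENCODE M21 (GRCm38), and shared sequence from blastn 2.17.0. Permutation tests used all 70 regroupings of the 8 libraries.

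The members and all lists were chosen with earlier results of these data known. Named genes were the members, their paralogs, the known targets, the 3 highest and 3 lowest called genes of each list and the 5 profiles nearest to Nfat5, with the cell type markers. Tab1, Tab2, Spag9, Kpna6 and the other genes named as not called were chosen after their values were seen. Ccm2l and Rac2 were not in the table, so Ccm2 has no paralog share. Alternatives were other scalings (median-of-ratios, upper quartile, totals alone), 2 other filters, DESeq2 1.42.0, limma-voom and limma 3.58.1 on log2 of the deposited values plus 1, a threshold of 0.01, the library number as a covariate in 2 forms, leaving out each library, and, for paralog shares, other lengths. A further list of pathway genes is not reported here.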

Additional observations from a re-analysis of the deposited data

Results flagged for a closer look

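Each library was set against the 3 others of its group, for 36 sets of 4 values, and 3 libraries lay far from the rest, with about 1.8 due by chance. The share of Nfat5 in the NFAT family was 51.2% for NaCl replicate 7 and 53.3 to 53.7% for the other 3. That library also had the lowest Nfat5 level of its group, at 308.5 CPM. Total counts were 47.6 M for control replicate 1 and 41.8 M to 42.7 M for the remaining controls. They were 35.3 M for NaCl replicate 5 and 41.4 M to 42.4 M for the remaining NaCl libraries. Nfat5 and Fyn stayed called when each of these libraries was left out in turn.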

How the results depend on the processing

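Nfat5 kept its direction and call under all 18 alternative fits, and Fyn under 17. At a threshold of 0.01 the number of called genes was 3145 in place of 4789, and Nfat5 and Fyn stayed called. Leaving out a library gave 4071 to 4634 called genes, 2 to 3 called members, and Nfat5 log2 fold changes of 0.25 to 0.30. The linear drift over library numbers moved the called members from 2 to 4 and turned the sign of Akap13 (-0.11), Rac1 (0.0017) and Ccm2 (0.070), none of them called; the cause was not tested. Without a library Akap13 ranged from -0.012 to 0.040, with the sign turned without control replicate 2 (-0.0057) or NaCl replicate 8. Among other members that were not called, the log2 fold change without a library ranged from 0.038 to 0.13 for Map2k3 (lowest adjusted p = 0.0548), from 0.013 to 0.075 for Dhx9, from 0.032 to 0.12 for Parp1, from -0.086 to -0.022 for Ccm2, from -0.077 to -0.035 for Map3k3, from -0.075 to -0.040 for Rac1 and from 0.079 to 0.11 for Mapk14. The difference in the share of Rac1 ranged from -0.191 to 0.18 points without a library and reversed without control replicate 4 (0.063) or NaCl replicate 6 (0.18). Of the kinases and phosphatases list, 2 genes were called at 0.01, against 4. The other shares kept their sign under both other length scalings and without each library, and total counts differed by -4.049 to -1.679 M. Of the 20 called genes in the 3 pathway lists, 12 were called in every alternative fit, 6 were not called under the drift, and 1, Map3k2, reversed. No paired analysis was possible because the groups share no replicate number. Each member had at least 1753 counts in every library, and the effect of depth on the calls was not tested.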
